A study of Homo sapiens with 6 samples.

Results

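The 9 genes FOS, FOSL1, FOSL2, JUN, JUNB, JUND, BATF, BATF3 and ATF3 encode subunits of activator protein 1 (AP-1). They were examined for binding of GSE1, a chromatin protein that associates with the histone demethylase LSD1, in NB4, a cell line established from human acute promyelocytic leukaemia. The genes were taken by name, as subunits of the factor, with earlier results of these data known, out of 20033 protein-coding genes of GENCODE version 44. A peak was assigned to a gene when it overlapped the span of the gene extended by 50 kb on each side (the window). By this rule the genes held 25 of the 21401 peaks from DMSO-treated cells and 10 of the 13233 peaks from MC2580-treated cells.

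The cells had been transduced with the lentiviral vector pLEX_307 carrying transcript variant 2 of GSE1 with a V5 tag, and were treated for 24 h with 2 µM MC2580, an LSD1 inhibitor, or with DMSO. Chromatin immunoprecipitation and sequencing (ChIP-seq) used an anti-V5 antibody, so that the peaks report the introduced and not the endogenous protein. Cells with the empty vector, immunoprecipitated in the same way, and an input for each of these 3 conditions made up the rest of the 6 libraries. Each group held 1 library, the empty-vector library served as background for both lists, and no test between the treatments was possible. Sequencing depth was unknown, and peak lists hold no expression values with which to check the cell type.

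AP-1 is a family of dimeric transcription factors. The Jun proteins pair with one another or with a protein of the Fos, BATF or ATF groups through a leucine zipper, and the dimers bind a short palindromic element, the TPA response element, or the related cAMP response element (CRE). FOS, JUN and JUNB are immediate early genes, which cells transcribe within minutes of a stimulus. In the myeloid lineage AP-1 factors take part in monocytic and macrophage differentiation, BATF3 in the development of dendritic cells, and ATF3 in the stress response.

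All 9 genes had at least 1 GSE1 peak in their window in DMSO (9 of 9, Wilson 95% interval 70.1 to 100%), whereas 47.9% of all protein-coding genes did. Among protein-coding genes no longer than the longest of the 9 (ATF3, 55444 bp), a comparison chosen after seeing the data, the share was 46.4%. After MC2580, 5 of 9 genes had a peak (55.6%, 26.7 to 81.1%), beside 27.3% of all protein-coding genes and 26.3% of those no longer than ATF3. JUNB, BATF, BATF3 and ATF3 had none. The MC2580 count rested on weak and distant peaks: at a score of at least 100, 1 of 9 genes (FOSL2) had an MC2580 peak, beside 11.0% of all protein-coding genes, and with the span extended by 10 kb 1 of 9 did (JUND), beside 16.7%. The DMSO counts were 9 of 9, beside 31.7%, and 6 of 9, beside 30.7%. Within 3 kb of one of its own annotated transcription start sites, 1 of 9 genes, FOS, had a DMSO peak (11.1%, 1.99 to 43.5%). That interval contains the 16.1% of all protein-coding genes, but it is wide, and 1 of 9 genes is too few to say whether the AP-1 genes differ from them. In MC2580 the count was 0 of 9, which allows a share of up to 33.3%, beside 7.87% of all protein-coding genes. These intervals cover counting error only, and neighbouring genes share peaks, so they are not replicates. ATF3 counted only through a peak that was also in the BATF3 window. Background genes were not matched in the number of neighbouring genes.

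The number of peaks in the windows was lower after MC2580, with a ratio of 0.400 (exact 95% interval 0.171 to 0.862, counting error only). In the windows of all protein-coding genes the ratio was 0.587, and over the whole lists it was 0.618. Outside 118 peak-dense 1 Mb bins, each with at least 40 distinct peaks of both lists together, it was 0.425. Only FOSL1 of the 9 genes starts in such a bin. The ratio at the AP-1 genes thus lay below that of the whole lists and near that of sequence outside dense bins, and its interval contains all 3 of these values.

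**Figure D1:**
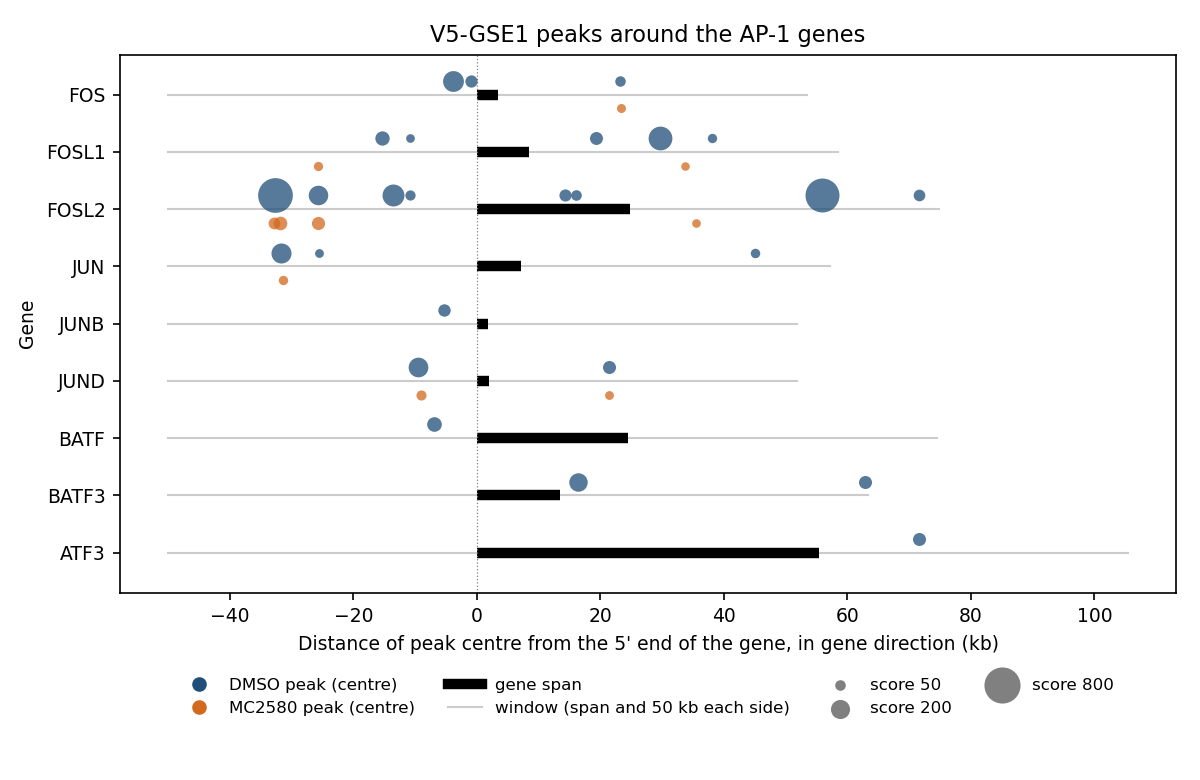
Position of each peak centre relative to the 5′ end of the gene (x axis, kb, in the direction of transcription) for the 9 AP-1 genes (rows); blue circles above a row are DMSO peaks, orange circles below it are MC2580 peaks, and circle area is proportional to the score. Circles gather outside the black gene spans, FOSL2 carries the most (8 and 4), and the rows of JUNB, BATF, BATF3 and ATF3 hold no orange circle.

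The sequence at the centre of the highest-scoring DMSO peak is shown for 7 of the genes, to give the bases at their strongest GSE1 site. Each run is 200 bases of the hg38 plus strand, 5′ to 3′, and capitals mark a match to a consensus word on either strand (AP-1 TGAGTCA, CRE TGACGTCA, PU.1 GAGGAAGT, RUNX TGTGGTTT or GFI1 AAATCAC). The AP-1 and CRE words do not overlap each other in any of them. None of the runs holds an annotated UTR base.
FOS site at chr14:75274878-75275077: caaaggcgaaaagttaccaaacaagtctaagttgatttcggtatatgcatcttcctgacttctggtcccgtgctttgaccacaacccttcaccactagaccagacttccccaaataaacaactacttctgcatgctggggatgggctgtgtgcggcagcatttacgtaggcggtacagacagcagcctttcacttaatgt
FOSL1 site at chr11:65870788-65870987: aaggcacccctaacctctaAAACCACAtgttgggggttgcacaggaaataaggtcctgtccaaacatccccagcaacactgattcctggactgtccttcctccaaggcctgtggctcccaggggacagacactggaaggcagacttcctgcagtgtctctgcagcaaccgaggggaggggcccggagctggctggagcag
FOSL2 site at chr2:28359733-28359932: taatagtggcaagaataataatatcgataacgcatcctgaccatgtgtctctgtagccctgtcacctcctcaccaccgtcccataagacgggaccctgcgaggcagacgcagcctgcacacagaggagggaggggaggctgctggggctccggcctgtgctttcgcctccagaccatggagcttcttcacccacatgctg
JUN site at chr1:58815715-58815914: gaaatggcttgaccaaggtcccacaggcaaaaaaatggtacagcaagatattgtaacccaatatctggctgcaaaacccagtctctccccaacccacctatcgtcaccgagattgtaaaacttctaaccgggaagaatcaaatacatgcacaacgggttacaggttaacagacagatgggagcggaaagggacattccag
JUNB site at chr19:12786147-12786346: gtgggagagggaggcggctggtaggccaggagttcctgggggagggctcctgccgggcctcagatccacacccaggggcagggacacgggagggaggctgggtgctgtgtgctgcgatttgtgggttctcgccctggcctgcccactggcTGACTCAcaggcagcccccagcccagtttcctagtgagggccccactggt
BATF site at chr14:75515483-75515682: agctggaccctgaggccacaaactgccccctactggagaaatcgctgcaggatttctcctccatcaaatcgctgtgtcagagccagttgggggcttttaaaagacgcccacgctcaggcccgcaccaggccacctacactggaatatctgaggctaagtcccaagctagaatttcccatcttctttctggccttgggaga
BATF3 site at chr1:212683339-212683538: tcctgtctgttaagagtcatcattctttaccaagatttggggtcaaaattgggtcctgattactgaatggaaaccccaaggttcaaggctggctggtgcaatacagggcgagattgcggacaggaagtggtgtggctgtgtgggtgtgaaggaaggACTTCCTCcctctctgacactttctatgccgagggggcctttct

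These strongest sites held few of the words. The FOSL1 site carried a RUNX word, the JUNB site an AP-1 word and the BATF3 site a PU.1 word, and the sites of FOS, FOSL2, JUN and BATF carried none within 200 bp. The DMSO peak with most AP-1 words at its centre, singled out after its sequence was seen, lay 15349 bp upstream of FOSL1 and held 2 of them.
FOSL1 site at chr11:65915823-65916022: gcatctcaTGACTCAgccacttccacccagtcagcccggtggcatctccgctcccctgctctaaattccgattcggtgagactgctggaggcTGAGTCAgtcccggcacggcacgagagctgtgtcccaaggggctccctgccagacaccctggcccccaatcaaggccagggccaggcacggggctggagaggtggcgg

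As a group, FOS, FOSL1 and FOSL2 had the most peaks in their windows, which does not assign the peaks to these genes. All 5 DMSO peaks at FOSL1, which starts in a dense bin, were nearer to another coding start site. The same held for the peaks of 798.26 and 94.2 at FOSL2. FOS, the founding Fos protein, lies on the plus strand of chromosome 14 (75278826 to 75282230) and had 3 DMSO peaks. The strongest, from 75274408 to 75275547, was centred 3849 bp upstream of the 5′ end with a score of 300.03. The score is minus 10 times log10 of the p-value that the peak caller gave, so that 50 is the calling threshold. Whether it comes from the call against the input or against the empty-vector ChIP is not given in the sources used here, so the printed scores are read as a rank of strength and not as p-values of a known contrast. This peak was intergenic, its edge lay 3279 bp from the nearest FOS start site, and 89.1% of all DMSO peaks scored lower. The second peak, from 75277312 to 75278330, ended 496 bp before the start site, within the promoter class (up to 3 kb from any annotated start site), and scored 104.13. The third, 23162 bp downstream (75301516 to 75302461), scored 76.22.

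After MC2580 only the weakest of the 3 FOS sites had a peak, from 75301780 to 75302432 with a score of 56.41. The upstream sites had none, and the nearest MC2580 peak was 26233 bp from the stronger of them and 23450 bp from the promoter peak.

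FOSL2, a Fos-related subunit without the activation domain of FOS, had the most peaks of the 9 genes. It lies on chromosome 2 (28392448 to 28417317, plus strand), with 8 DMSO and 4 MC2580 peaks in a window of 124870 bp. The highest DMSO score of all 25 peaks, 833.73, was at an intergenic site centred 32616 bp upstream (28358550 to 28361114, 2565 bp wide), and 97.0% of the DMSO list scored lower. Further upstream sites scored 263.35 at 25712 bp (28366047 to 28367425), 332.71 at 13596 bp (28377966 to 28379739) and 72.53 at 10889 bp (28381163 to 28381956). FOSL2 was the nearest coding start site for each of these 4 peaks.

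Inside FOSL2, 1 intronic peak scored 101.92 (28406107 to 28407211) and 1 peak overlapping an exon scored 78.26 (28408062 to 28409027). They were the only member peaks that lay within the span of their gene, in either list. Downstream of the gene, a peak from 28447671 to 28448929 scored 798.26, the second highest of the 25. It belonged to the promoter class through a long non-coding gene, and its nearest coding start site was that of PLB1, 8845 bp away. The last DMSO peak, 94.2, lay in an intron of PLB1 (28463620 to 28464605).

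In MC2580 the 2 upstream FOSL2 sites farthest from the gene kept a peak at a lower score. The site at 833.73 was matched by 2 separate peaks, from 28359060 to 28360046 (score 96.71) and from 28360194 to 28361105 (129.29), both inside the DMSO peak. The site at 263.35 was matched by a peak from 28366153 to 28367339 scoring 119.98, whose centre differed by 10 bp. The remaining 6 DMSO peaks of the window, those at 332.71 and 798.26 included, had no counterpart, and the nearest MC2580 peak to the site at 798.26 was 19348 bp away. The fourth MC2580 peak (28427633 to 28428323) scored 52.04, close to the threshold, and overlapped no DMSO peak.

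**Figure D2:**
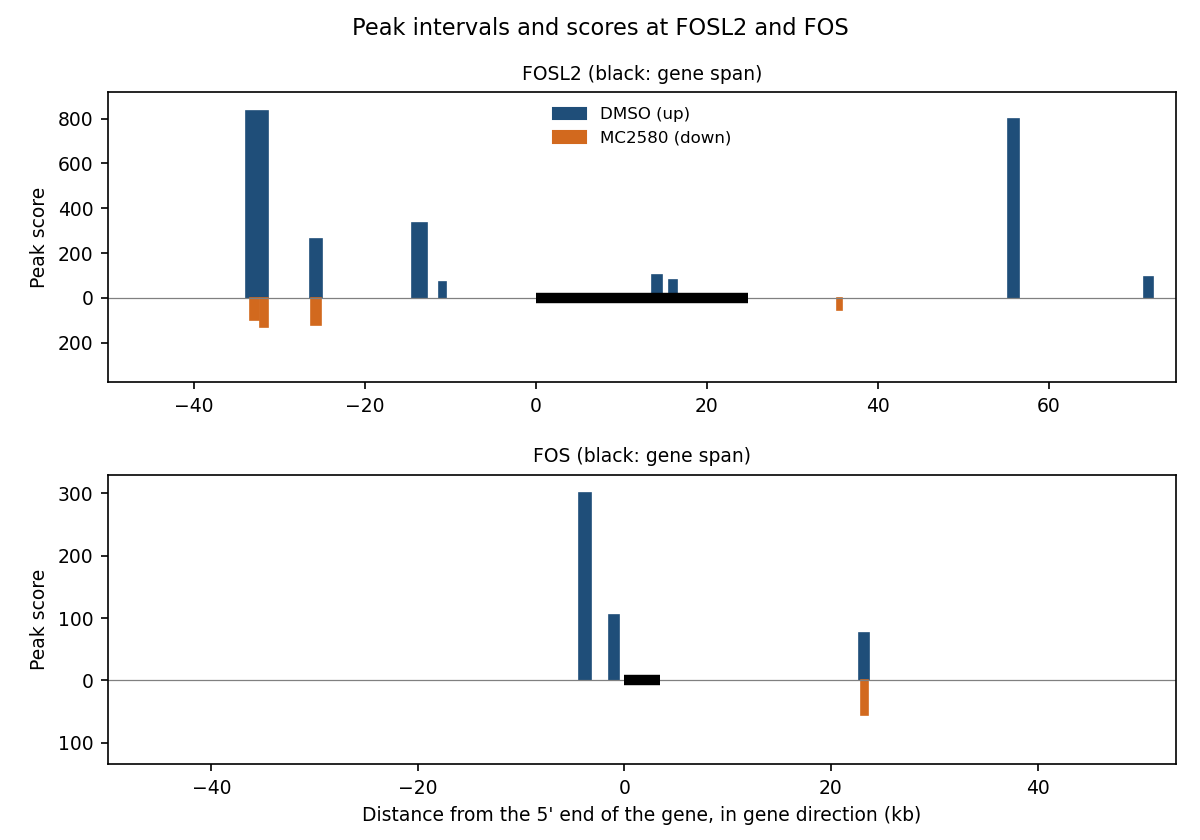
Peak intervals (x axis, kb from the 5′ end) drawn to scale with the score as height, DMSO upward and MC2580 downward, in the windows of FOSL2 (top) and FOS (bottom). At FOSL2 the tallest bar, 833.73, faces MC2580 bars of 96.71 and 129.29 and the bar of 798.26 faces none, and at FOS the upstream bars of 300.03 and 104.13 face none.

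FOSL1, the other Fos-related subunit, lies in gene-rich sequence on chromosome 11 (65892049 to 65900573, minus strand), in a 1 Mb bin with 45 DMSO and 7 MC2580 peaks. Its window held 5 DMSO peaks with scores of 60.71, 390.46, 116.18, 52.34 and 141.78, and 2 MC2580 peaks with scores of 50.41 and 59.34. No DMSO peak overlapped an MC2580 peak. Every one of these peaks was nearer to the coding start site of another gene than to that of FOSL1. The peak scoring 390.46 (65870302 to 65871472) was centred 315 bp from a start site of EFEMP2, that of 116.18 (65880842 to 65881813) 1485 bp from CTSW, that of 60.71 (65862103 to 65862919) 485 bp from CFL1, and that of 141.78 (65915320 to 65916525) 2438 bp from C11orf68. The nearest DMSO peak edge was 10487 bp from a FOSL1 start site.

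The Jun genes had 3 (JUN), 1 (JUNB) and 2 (JUND) DMSO peaks. JUN, the founding Jun protein and transactivating partner of FOS, lies on the minus strand of chromosome 1 (58776845 to 58784048). Its strongest DMSO peak, 278.06, was centred 31766 bp upstream, at a promoter of the non-coding gene LINC01135 (58814894 to 58816735). The others scored 53.89 at 25551 bp upstream (58809160 to 58810039) and 61.94 at 44994 bp downstream (58738707 to 58739402). The only MC2580 peak (58814959 to 58815768) lay inside the strongest DMSO peak and scored 61.29.

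JUNB, a weaker activator that can oppose JUN, had 1 DMSO peak and no MC2580 peak. The DMSO peak on chromosome 19 (12785728 to 12786764, score 106.48) lay in HOOK2, centred 5240 bp upstream of JUNB, which occupies 12791486 to 12793315 on the plus strand. It was in the promoter class through MIR5684, whose start site was 882 bp away. The nearest MC2580 peak was 150408 bp from it.

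JUND, the Jun protein expressed most constantly across tissues, was the gene of the set at which every DMSO peak had a counterpart. It lies on the minus strand of chromosome 19 (18279694 to 18281622). An intergenic peak centred 9552 bp upstream (18290049 to 18292299) scored 267.89 in DMSO, and the MC2580 peak inside it (18290340 to 18291068) scored 71.07. A peak 21472 bp downstream in IQCN (18259636 to 18260665) scored 117.52, and its MC2580 counterpart (18259682 to 18260601) scored 54.21.

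The BATF and ATF genes had DMSO peaks only. BATF, a subunit without an activation domain of its own, lies on chromosome 14 (75522455 to 75546993, plus strand), on the same chromosome arm as FOS, and had 1 intergenic peak centred 6873 bp upstream (75514984 to 75516180, score 148.43). BATF3 (chromosome 1, 212686417 to 212699840, minus strand) had a peak just beyond its 3′ end, from 212682941 to 212683935, that scored 235.99 and was 3574 bp from the nearest BATF3 start site. A further peak, from 212636405 to 212637401 with a score of 117.46, fell in the windows of both BATF3 and its neighbour ATF3 (212565334 to 212620777, plus strand) and was the only one at ATF3. It was counted once among the 25, and its nearest coding start site was that of GARIN4, 12429 bp away. The nearest MC2580 peak was 938432 bp from the shared site and 984968 bp from the other.

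At the limit of the window, the farthest DMSO peak inside lay 49016 bp from the span of BATF3 (the one shared with ATF3), and the nearest outside lay 51275 bp from FOS (75333505 to 75334855, score 140.24). In MC2580 the farthest inside lay 32402 bp from FOSL2, and the nearest outside lay 110748 bp from JUND.

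**Figure D3:**
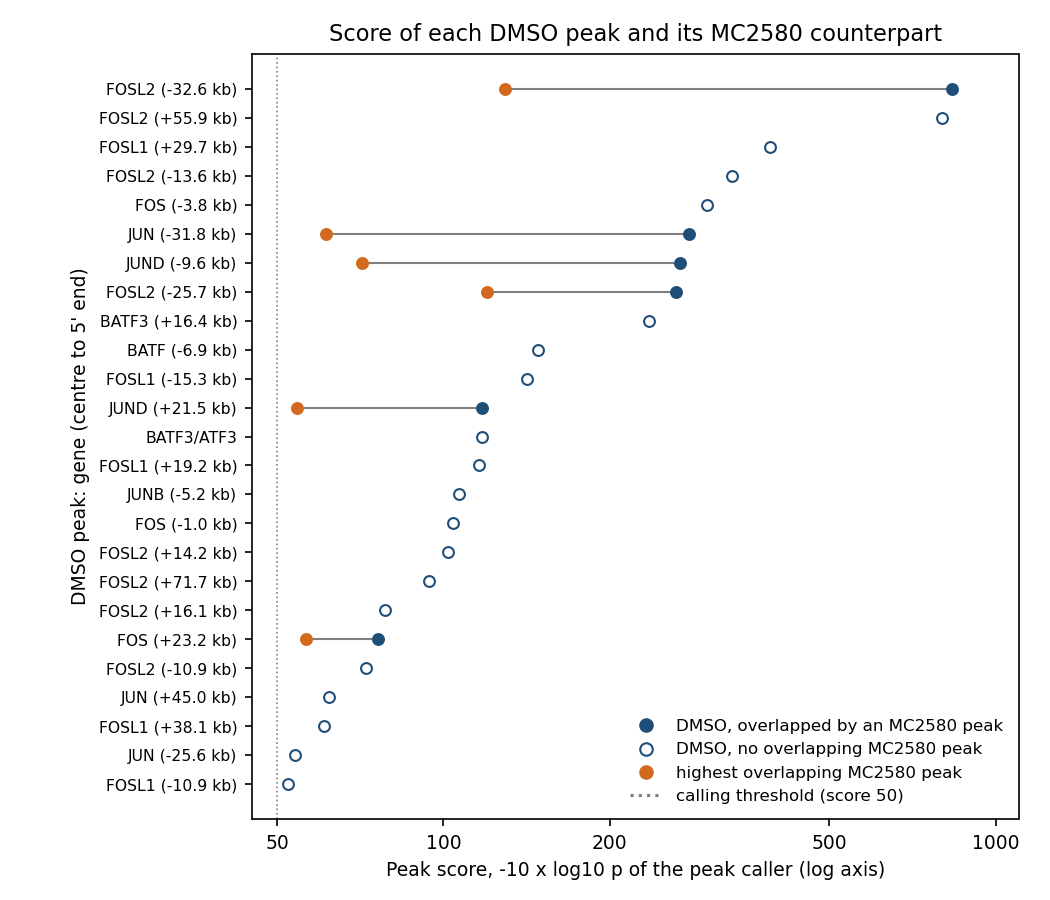
Score of each of the 25 DMSO peaks (blue, log axis) with the highest overlapping MC2580 score (orange), in order of DMSO score; open circles have no overlapping MC2580 peak and the dotted line is the calling threshold of 50. The 6 filled pairs all run to a lower MC2580 score, and 5 of the 9 peaks scoring at least 200 are open.

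The scores over the members were then set beside those of the lists. The median score of the 25 DMSO peaks was 117 (95% interval from order statistics 94.2 to 263), against 91.1 for all DMSO peaks and 91.7 for those outside dense bins. The median of the 10 MC2580 peaks was 60.3 (52.0 to 120), against 78.1 for all MC2580 peaks and 67.2 outside dense bins. Their highest score was 129.29, so that 0 of 10 reached 200, which allows a share of up to 30%. The share of the whole MC2580 list at that score is not given here, so this count has no background beside it. Of the 25 DMSO peaks 9 scored at least 200 (36.0%, Wilson 95% interval 20.2 to 55.5%), beside 3962 of all 21401 DMSO peaks. The DMSO median lay above that of its list and the MC2580 median below that of its list, and in MC2580 the interval contains the values of the list. Scores grow with depth, which was unknown, so that scores of the lists are set side by side only as a description.

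The highest DMSO score in the window ranked the genes as FOSL2 (833.73), FOSL1 (390.46), FOS (300.03), JUN (278.06), JUND (267.89), BATF3 (235.99), BATF (148.43), ATF3 (117.46) and JUNB (106.48). With 1 library no spread is known, and the order of neighbours such as FOS, JUN and JUND is not resolved. Of all protein-coding genes, 96.9% had a lower highest score than FOSL2, or no peak, and 69.9% had a lower one than JUNB. In MC2580 the order was FOSL2 (129.29), JUND (71.07), JUN (61.29), FOSL1 (59.34) and FOS (56.41), and 92.0% of protein-coding genes ranked below FOSL2 and 77.4% below FOS. Genes with no peak in the window made up 52.1% of protein-coding genes in DMSO and 72.7% in MC2580. Any called peak therefore ranks above that share, however weak it is.

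**Figure D4:**
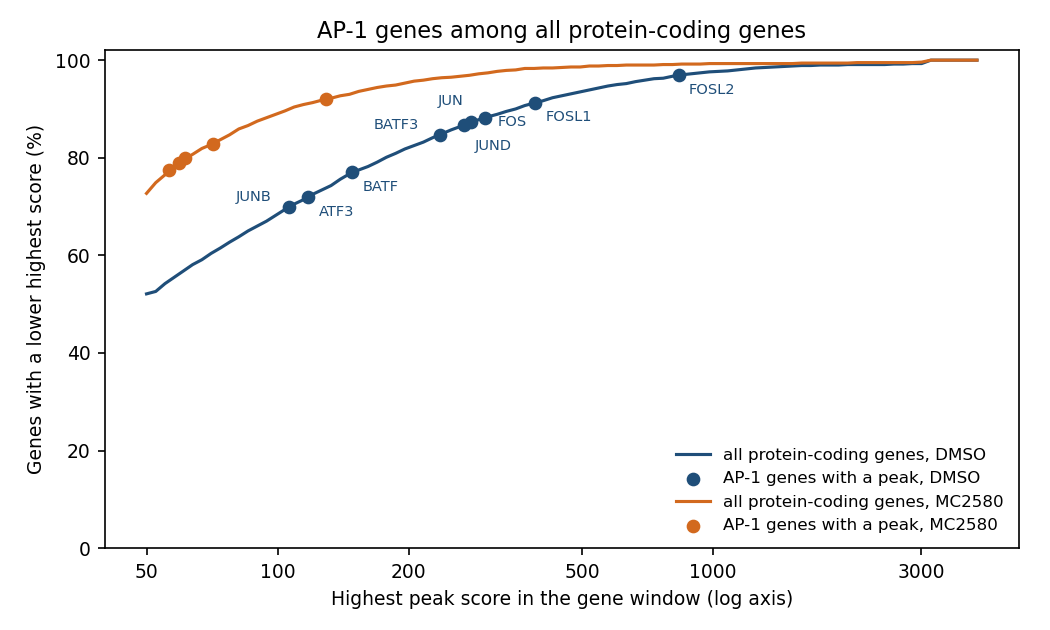
Share of protein-coding genes with a lower highest score, or no peak, in their window (y axis, %) against that score (x axis, log) for DMSO (blue line) and MC2580 (orange line), with the AP-1 genes as circles on the lines. In DMSO the 9 circles run from 69.9% (JUNB) to 96.9% (FOSL2), and in MC2580 5 circles run from 77.4% (FOS) to 92.0% (FOSL2).

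Sites were counted as common to both treatments at an overlap of at least 1 bp. Among the 25 DMSO peaks, 6 had an MC2580 peak at the same site (24.0%, Wilson 95% interval 11.5 to 43.4%), against 33.6% of all DMSO peaks and 22.8% of those outside dense bins. Among the 10 MC2580 peaks, 7 shared a site with DMSO (70.0%, 39.7 to 89.2%), against 58.0% of all MC2580 peaks and 54.6% outside dense bins. The intervals at the AP-1 genes contain these shares. The 7 MC2580 peaks all lay wholly inside their DMSO peak, and 43.5% of overlapping MC2580 peaks did so over the whole list. By gene, FOS, FOSL2, JUN and JUND had a site common to both lists (4 of 9, 44.4%, 18.9 to 73.3%), against 19.3% of all protein-coding genes.

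At sites where a single peak of each list met, the score ratio of MC2580 to DMSO was 0.740 at FOS, 0.456 at FOSL2, 0.220 at JUN, and 0.461 and 0.265 at JUND. All 5 pairs had the lower score in MC2580, with a median ratio of 0.456. Over both lists 76.7% of 5449 such pairs were lower and the median ratio was 0.638, and outside dense bins 90.6% of 2263 were lower with a median of 0.421.

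The overlap was then related to the DMSO score, with a cut-off of 200 chosen after seeing the data. Of the 9 DMSO peaks scoring at least 200, 4 had an MC2580 counterpart (44.4%, Wilson 95% interval 18.9 to 73.3%), against 76.7% of all DMSO peaks with such a score and 66.8% of those outside dense bins. The interval contains the second share and not the first, which is no test. The backgrounds were not matched in score: 504 of all DMSO peaks scored 1000 or more, 98.6% of them with a counterpart, and 0 AP-1 peaks did. By score range, 3 of 4 AP-1 peaks from 200 to below 300 had a counterpart, against 62.2% of all DMSO peaks. From 300 to below 500 it was 0 of 3, against 77.9%, and from 500 to below 1000 1 of 2, against 92.1%. Several of the 9 peaks also lay in the FOSL2 window and are not independent. The 5 without a counterpart were those of 798.26 and 332.71 at FOSL2, 390.46 at FOSL1, 300.03 at FOS and 235.99 at BATF3. Scores from 500 to below 1000 were matched in 92.1% of 734 DMSO peaks, so that the FOSL2 peak of 798.26 was 1 of 58 in that range with no MC2580 counterpart. Below 200, 2 of 16 were matched (12.5%, 3.50 to 36.0%).

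**Figure D5:**
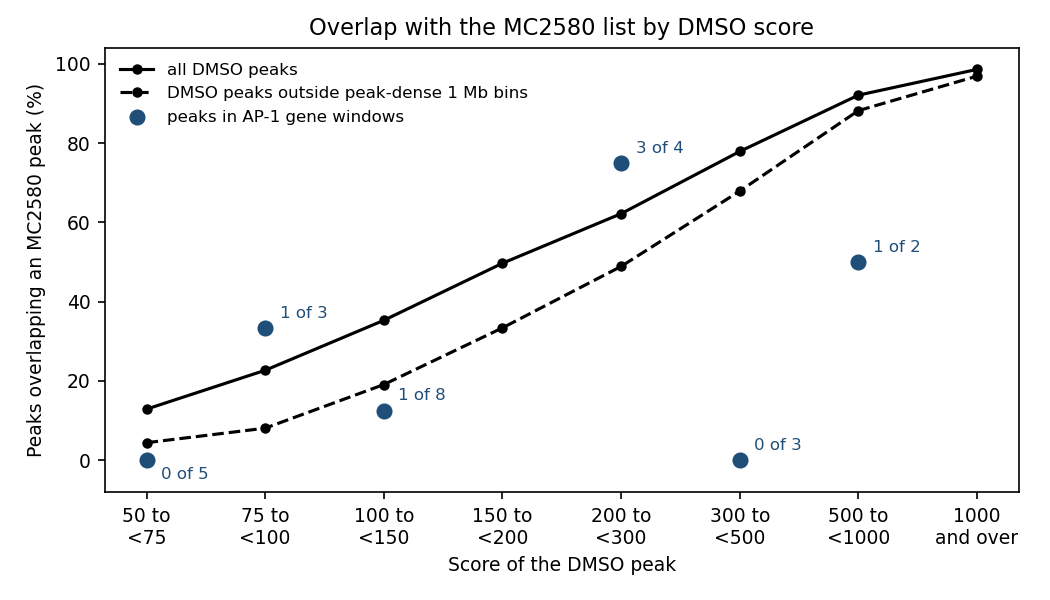
Share of DMSO peaks met by an MC2580 peak (y axis, %) by score range (x axis) for all DMSO peaks (solid line), those outside peak-dense bins (dashed line) and those in AP-1 gene windows (blue circles, with counts). The lines climb from 12.9% and 4.43% to 98.6% and 96.9%, while the circles rest on 2 to 8 peaks each and lie at 0 of 3 for scores from 300 to below 500.

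The position of the 25 DMSO peaks relative to annotation was set beside that of all DMSO peaks in windows of protein-coding genes. Distal intergenic sequence held 11 of the 25 (Wilson 95% interval 26.7 to 62.9%), against 16.9% of the peaks in all such windows and 24.4% of the whole list. Promoters of any gene held 9 (20.2 to 55.5%), against 40.3%, introns 4 (6.40 to 34.7%), against 34.7%, and an exon or UTR 1 (0.710 to 19.5%), against 7.96%. Of the 10 MC2580 peaks 6 were distal intergenic (31.3 to 83.2%), against 17.1% in all windows and 26.5% of the list, and 4 were in promoters (16.8 to 68.7%), against 37.0%. Introns, with a background of 36.9%, and exons or UTRs, with 8.96%, held 0 of 10, which allows a share of up to 30% each. The intervals of the distal share lay above both backgrounds, and those of the promoter share contained the share in all windows. They treat peaks as independent, although FOSL2 alone held 8 of the DMSO and 4 of the MC2580 peaks, so they are no test. Most distal MC2580 peaks lay at distal DMSO sites, so the lists do not give separate evidence. Without FOSL2 the distal count was 7 of 17 (21.6 to 64.0%) in DMSO and 3 of 6 (18.8 to 81.2%) in MC2580, alternatives chosen after seeing the data, and these intervals contain the shares of the whole lists and not those of the windows. The background genes were not matched to the 9 genes in length or in the number of neighbouring genes, and the part of either was not tested.

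The gene had the nearest coding start site in 15 of the 26 pairs of an AP-1 gene and a DMSO peak in its window and in 6 of the 10 MC2580 pairs. Over all protein-coding genes this held for 44.5% and 45.1% of such pairs. The promoter peaks belonged mostly to neighbouring genes, FOS being the exception, and every peak of the FOSL1 window was among those nearer to another coding gene.

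Consensus words were counted in the 200 bp at each peak centre. The AP-1 word was found in 2 of the 25 DMSO peaks (Wilson 95% interval 2.22 to 25.0%), against 6.31% of all DMSO peaks. These were the JUNB peak and the FOSL1 peak with 2 words printed above. The RUNX word was in 3 (background 4.63%), 1 in the FOSL1 window and 2 in the FOSL2 window, and the PU.1 word in 1 (2.91%), near BATF3. The CRE and GFI1 words were in 0 of 25, which allows a share of up to 12.0%, against 0.107% and 3.74% of all DMSO peaks. In MC2580 the AP-1 word was in 0 of 10, which allows up to 30%, against 4.96%. Anywhere in the peak, 7 of 25 DMSO peaks held an AP-1 word (28.0%, 14.3 to 47.6%), against 23.2% of all DMSO peaks. The counts at the AP-1 genes were within counting error of the lists. A match shows letters only, not binding by the factor.

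The 2 highest FOSL2 sites and the FOS promoter peak had no AP-1 word anywhere. The strongest FOSL2 peak held a CRE word from 28359394 to 28359401, 434 bp from its centre and within its first MC2580 counterpart. Among the RefSeq promoters (250 bases before to 50 after a start site, build GRCh38.p14), 8 entries for 7 of the genes were found. An AP-1 word stood in that of FOSL2 and a CRE word in that of JUND, against 4.95% and 1.85% of 35116 promoters. No peak of either list reached within 3 kb of these start sites of FOSL2 and JUND.

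The wider AP-1 circuit was counted from a list of 26 genes. In DMSO 19 had a peak in their window and in MC2580 9 did, and 7 and 3 had one within 3 kb of an own start site, where the shares of all protein-coding genes were 47.9% and 27.3% in the window and 16.1% and 7.87% near a start site. Of 10 dimer partners of AP-1 proteins, 7 and 3 had a peak in the window. For JDP2, a neighbour of BATF, the only DMSO peak was the one already counted at BATF. The promoter peaks were at MAFK (165.9), MAFG (108.2) and ATF7 (67.99) in DMSO, small Maf proteins and an ATF factor, and at none in MC2580. MAFK had a peak-rich window, with 21 DMSO and 12 MC2580 peaks. Of 9 upstream kinases and factors, 7 had a peak in the window in DMSO and 0 in MC2580, which allows a share of up to 33.3%, above the 27.3% of all protein-coding genes. The single promoter peak was that of DUSP1, a phosphatase of the kinases that activate AP-1, with a score of 122.59. Of 7 target genes, 5 and 6 had a peak in the window, and the groups were not tested against each other. MMP9, a matrix metalloproteinase, PLAUR, the urokinase receptor, and VIM, vimentin, had promoter peaks in both lists, which scored 491.03, 235.5 and 833.87 with DMSO, and 129.82, 59.22 and 63.8 with MC2580.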

How the data were processed

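V5 ChIP-seq of NB4 cells was analysed from 2 peak lists. As described in the study's methods, reads were aligned by the authors to hg38 with Bowtie (4.8.2 in the submitters' processing notes), unique matches were kept, and peaks were called with MACS at p = 1e-05 against the respective input and the empty-vector ChIP. How the 2 backgrounds were combined is not given in the sources used here. The score of each peak was deposited by the authors and is not scaled for depth. Each list was assigned to its treatment by its name. Inputs and the empty-vector ChIP entered only as background and were not analysed here.

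Starts were counted from 1. Genes came from GENCODE version 44, and all 9 names matched 1 protein-coding gene each. Distances run from the peak centre to the 5′ end, or from the peak edge to any start site of the gene. The genes and lists were chosen with earlier results of these data known. All peaks of the 9 genes are given, the centre sequences at JUND and ATF3 are not reported here, genes of the wider list were named where they had a DMSO peak within 3 kb, and neighbouring genes where their start site was nearest. No test was made. Shares carry Wilson 95% intervals, and where a count is 0 the share that 3 counts would give. Interval and word functions were tested on simulated data. Alternatives were other windows (10 and 100 kb), a score of at least 100, other overlap and promoter rules and removal of wide peaks or dense bins. Python 3.11.15, numpy 2.4.6, scipy 1.17.1, pysam 0.24.0 and matplotlib 3.10.9 were used.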

Additional observations from a re-analysis of the deposited data

How the results depend on the processing

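No paired analysis was possible because each treatment was represented by 1 library, and no replicate could be left out. Of 75 alternative values 55 stayed within set limits (counts within 1.5 times, medians and ratios within their interval) and 20 moved beyond them. The cause of the moves was not tested beyond what an alternative removes by construction. These limits were wide: the DMSO median at a score of at least 100 was 235.99, beside 117.46 as reported, and stayed within them. With the span extended by 10 kb, 8 DMSO peaks at 6 genes and 1 MC2580 peak at 1 gene were left (ratio 0.125), 1 of each list overlapped, and 1 DMSO peak had an AP-1 word. With 100 kb there were 34 and 10 peaks (ratio 0.294). At a score of at least 100 all 9 genes kept a DMSO peak, 17 DMSO and 2 MC2580 peaks were left (ratio 0.118), the latter at 1 gene with a median of 124.63, and 2 of each list overlapped. With an overlap of 50% of both peaks, 3 DMSO and 3 MC2580 peaks counted as common. The AP-1 word was in 1 DMSO peak without FOSL1, the gene in a dense bin, in 4 DMSO and 1 MC2580 peaks with 400 bp windows, and in 7 and 2 whole peaks. Without FOSL2, an alternative chosen after seeing the data like the cut-off of 200, the ratio was 0.353. MC2580 had fewer peaks than DMSO under each of these. Depth was unknown and was not varied.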
